A study of Brassica rapa with 6 samples.

Results

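The enzymes that make and break down sucrose in Chinese cabbage (Brassica rapa) were compared between 2 tissues, the petiole and the leaf. The set holds 118 of the 45517 genes with a value in the linear transcript table. They were chosen by the protein name of their annotated transcript, which had to name sucrose synthase, sucrose-phosphate synthase or sucrose-phosphatase, an invertase or beta-fructofuranosidase, hexokinase, fructokinase or trehalose. The rule itself uses no expression value. The word fructokinase also brought in 12 6-phosphofructokinases, which belong to glycolysis, and the word invertase brought in 10 putative invertase inhibitors, which are not enzymes. Both are described under their own names.

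Petiole and leaf were sampled as 3 libraries each from wild type plants grown in a greenhouse. Total RNA was depleted of ribosomal RNA and made into strand-specific libraries. The labels used here name no cultivar, plant age or time of sampling, and whether separate plants gave the libraries is not stated, so that p-values measure the spread between these libraries, which may be technical. Linear totals were 120805715 to 132861243 estimated counts in the petiole libraries and 111518411 to 121161682 in the leaf libraries. Of these, 76.3 to 78.3% lay in gene values in petiole and 59.2 to 63.6% in leaf.

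Sucrose is the form in which most plants move carbon. In photosynthesising cells, sucrose-phosphate synthase joins UDP-glucose and fructose 6-phosphate, and sucrose-phosphatase then releases sucrose. In tissues that use it, sucrose is split either by sucrose synthase, which keeps the energy of the bond in UDP-glucose, a substrate for cellulose and callose, or by invertases of the cell wall, the vacuole and the cytosol and organelles, which release glucose and fructose. Hexokinase and fructokinase then phosphorylate these sugars, and trehalose 6-phosphate, made by trehalose-phosphate synthase and removed by trehalose-phosphate phosphatase, is known as a signal of sucrose supply.

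Levels are given in CPM, the counts in gene values scaled to library size with TMM normalization, a scale for comparing 1 gene between libraries. Where genes are compared with each other, each gene's share of the FPKM of its enzyme class within a library is used, because FPKM is per transcript length. Tests are edgeR's quasi-likelihood test of petiole against leaf over all 27984 genes with a mean of at least 10 counts, with Benjamini-Hochberg adjustment, and a gene is said to have risen or fallen when its adjusted p is below 0.05. The sample labels were set against marker genes, beside 31.4% higher and 31.0% lower in petiole among all tested genes. Of 28 tested genes of Rubisco small chains and chlorophyll a-b binding proteins, which mark mesophyll, 27 were lower in petiole and 0 higher, with a summed level of 548 to 598 CPM in petiole and 8661 to 9024 CPM in leaf, and 3 of the 31 listed were at 0 in every petiole library. All 11 tested xylem and fibre markers were higher in petiole, with a sum of 189 to 240.4 CPM in petiole and 67.5 to 76.7 CPM in leaf. Of 18 tested phloem markers 5 were higher and 8 lower, with a sum of 303 to 315 CPM in petiole and 491 to 510.3 CPM in leaf, and the sieve element markers among them are given beside sucrose synthases 5 and 6. The guard cell list, which also holds EPIDERMAL PATTERNING FACTOR peptides of epidermal development, had 4 of 11 tested genes higher and 4 lower, with a sum of 10.0 to 13.3 CPM in petiole and 20.9 to 27.1 CPM in leaf. All 4 higher ones were EPIDERMAL PATTERNING FACTOR-like peptides. The lower ones were EPIDERMAL PATTERNING FACTOR 1 and 2, EPIDERMAL PATTERNING FACTOR-like 9 and the guard cell anion channel SLAC1, at 0 in every petiole library. The potassium channel KAT1 of this list had 0.694 CPM in petiole and 0.952 CPM in leaf and did not pass the test (log2 fold change -0.45, edgeR adjusted p = 0.466). The changes below were measured between samples that also differ in these markers, and the part of the markers in them was not tested. In such bulk samples, fewer cells of a type and less RNA per cell cannot be told apart.

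Of the 118 genes, 90 passed the filter on low counts. Of the other 28, 17 were at 0 in every library and 11 had a few reads, at most 0.479 CPM in any library. Among the tested genes 31 rose and 33 fell in petiole and 26 did not pass the test. The counts depended on the scale and on the transcripts used. With limma on log2(FPKM + 1), where petiole exceeded leaf by 0.48 for the median gene, 51 members were higher and 14 lower, and 45 of the 64 calls had the same direction. After centring each library on its own median gene (below, centred on the median gene), 31 were higher and 40 lower. Such centring lowers genes near 0 FPKM more in petiole than in leaf. With annotated transcripts alone (class code =), edgeR called 18 higher and 14 lower, and 31 of the 64 calls were shared. The shares of all tested genes called in these alternative fits were not counted, so these numbers do not set the members apart from other genes. Of 12 falls of at most 0.74 on the log2 scale that had the opposite sign on the log2(FPKM + 1) scale, limma called 7 as higher in petiole there. The share called, 71.1%, stands beside 62.4% of all tested genes, and 34.4% higher and 36.7% lower stand beside 31.4% and 31.0%. The median log2 fold change was 0.013 for the tested members and 0.014 for all tested genes. The median size of the change, whatever its sign, was 0.95 on the log2 scale against 0.78 for all tested genes. Of the called genes, 21 rises and 19 falls were larger than 1 on the log2 scale. Calls of this size were not counted among all tested genes, so these numbers do not set the members apart either.

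Sucrose synthase stood out from the other classes by its summed level. The sum over its 7 genes was 924, 1000.5 and 1064 CPM in the petiole libraries, against 77.1, 82.0 and 87.1 CPM in the leaf libraries, 12.1 times as high in petiole. Cell wall invertase lay at the other end, with 16.5, 10.7 and 15.2 CPM in the petiole libraries, against 47.3, 44.8 and 41.9 CPM in the leaf libraries, 3.15 times as high in leaf. In CPM, the sums of the remaining classes of enzymes differed by a factor of at most 1.52. This limit did not hold for sums of FPKM. For trehalose-phosphate phosphatase they averaged 78.3 in petiole and 31.4 in leaf. For sucrose-phosphate synthase, lower in petiole by CPM, they averaged 43.8 in petiole and 34.7 in leaf. Sucrose synthase (243.6 in petiole, 12.1 in leaf) and cell wall invertase (6.02 in petiole, 11.14 in leaf) kept their direction. Within several of the remaining classes, called genes moved in opposite directions. The sums are descriptions and were not tested.

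**Figure D1:**
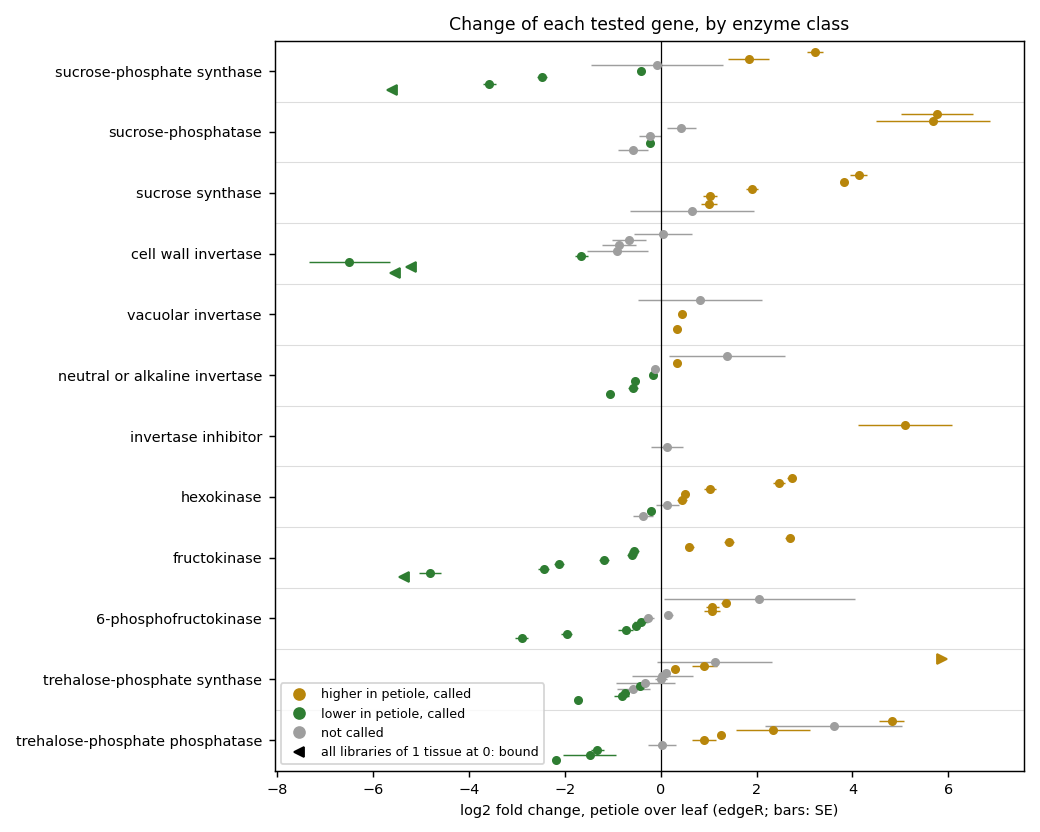
The log2 fold change of petiole over leaf is drawn on the horizontal axis for each of the 90 tested genes, in rows by enzyme class, with bars for the SE. Triangles mark the bound on the log2 scale for called genes at 0 in every library of 1 tissue, and colours mark genes called higher (31), lower (33) or not called (26). Sucrose synthase has 5 called rises and 0 called falls and cell wall invertase 4 called falls and 0 called rises, whereas sucrose-phosphate synthase, fructokinase and the trehalose classes have called genes on both sides of 0. Among all tested genes, 31.4% were called higher and 31.0% lower.

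Sucrose synthesis genes changed in both directions. Of the 7 sucrose-phosphate synthase genes, all tested, 2 rose and 4 fell (median log2 fold change -0.41), beside 31.4% higher and 31.0% lower of all tested genes. The gene with the highest FPKM of the class in both tissues, sucrose-phosphate synthase 1 (BraA10g020290.3C, A10 14730138 to 14735289, plus strand), had 159, 146 and 153 CPM in the petiole libraries, against 191, 207 and 212 CPM in the leaf libraries. The petiole libraries were all below the leaf libraries, and the difference was small (log2 fold change -0.41, SE 0.0536, edgeR adjusted p = 2.67e-04). Its sign was the opposite on log2(FPKM + 1) (0.33, limma adjusted p = 0.00144), and from annotated transcripts alone it did not pass the test (-0.83, edgeR adjusted p = 0.223). Its share of the FPKM of the class was 70.9% ± 2.68 in petiole and 70.6% ± 1.16 in leaf (SD, n = 3 each). The second gene of the class differed between tissues. In petiole it was a sucrose-phosphate synthase 2 gene on A06 (BraA06g032610.3C, A06 22378758 to 22383231, plus strand), with 28.2, 28.2 and 33.7 CPM in the petiole libraries, against 2.72, 2.96 and 3.95 CPM in the leaf libraries. The tissues did not overlap, and the level was 9.35 times as high in petiole (log2 fold change 3.23, SE 0.167, edgeR adjusted p = 1.22e-06). Its share of the class was 22.3% ± 2.81 in petiole and 1.84% ± 0.482 in leaf (SD, n = 3 each). A second copy of sucrose-phosphate synthase 2 on A03 (BraA03g004560.3C) rose as well, at a lower level (1.83, edgeR adjusted p = 0.00656), with a value of -0.02 on the FPKM scale centred on the median gene, where genes of low FPKM are compressed.

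In leaf the second place belonged to a sucrose-phosphate synthase 1-like gene on A02 (BraA02g008800.3C), which had 7.40, 6.95 and 8.39 CPM in the petiole libraries, against 42.9, 39.6 and 44.6 CPM in the leaf libraries. The petiole values were all below the leaf values (log2 fold change -2.48, SE 0.101, edgeR adjusted p = 3.27e-07; -2.74 and adjusted p = 0.212 with annotated transcripts alone), and its share of the class was 3.99% ± 0.449 in petiole and 17.1% ± 0.869 in leaf (SD, n = 3 each). Sucrose-phosphate synthase 4 (BraA02g028970.3C, A02 18357377 to 18361574, minus strand), whose Arabidopsis counterpart is known as a leaf form of the enzyme, had 2.66, 2.04 and 2.30 CPM in the petiole libraries, against 27.1, 29.6 and 27.0 CPM in the leaf libraries. It was 11.9 times as high in leaf, with no overlap (log2 fold change -3.58, SE 0.131, edgeR adjusted p = 1.78e-07). Its annotated transcript had 0 counts in every petiole library and 2, 3 and 8 counts in the leaf libraries, below the filter, so the fall rests on assembled transcripts. Sucrose-phosphate synthase 3 (BraA10g003470.3C) was listed at 0 in every petiole library and had 23, 19 and 64 counts in the leaf libraries, at least 48.8-fold lower in petiole, taking 3 counts over the 3 petiole libraries as the floor. A listed 0 may be a failed estimate, in which case this bound does not hold, and the gene did not pass on the FPKM scales (limma adjusted p 0.289 and 0.105). The remaining gene, a further 1-like copy lying 118 bases from the first (BraA02g008810.3C) and assembled into the same locus, was at most 0.316 CPM and did not pass the test, and reads may be split between these neighbours.

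Sucrose-phosphatase, the last step, showed the same kind of pattern, a main gene that changed little and minor genes that changed more. The gene with the highest FPKM in both tissues, sucrose-phosphatase 2 on A03 (BraA03g018710.3C), had 64.4, 66.9 and 70.5 CPM in the petiole libraries, against 82.8, 76.8 and 77.6 CPM in the leaf libraries. The decrease in petiole was small (log2 fold change -0.23, SE 0.0565, edgeR adjusted p = 0.00754) and had the opposite sign on log2(FPKM + 1) (0.50, limma adjusted p = 5.89e-05). The annotated transcript of this gene was at 0 in every library, so its counts are those of assembled transcripts. A second sucrose-phosphatase 2 gene on A04 (BraA04g025460.3C, A04 18238432 to 18240623, plus strand) had 9.89, 10.2 and 10.9 CPM in the petiole libraries, against 0.346, 0.219 and 0 CPM in the leaf libraries. This gene was near 0 in leaf and 54.4 times as high in petiole (log2 fold change 5.76, SE 0.749, edgeR adjusted p = 2.59e-04), and its share of the class was 11.4% ± 0.225 in petiole and 0.232% ± 0.231 in leaf (SD, n = 3 each). The annotated transcript of this gene had 0 counts in every petiole library and 24, 0 and 0 counts in the leaf libraries, below the filter. The rise thus rests on its assembled transcript. Its neighbour BraA04g025470.3C, 3208 bases away and of the same name, was at 0 in every library, and reads of such copies can be shared. A sucrose-phosphatase 1 gene on A08 (BraA08g002880.3C) also rose (5.69, edgeR adjusted p = 0.00364), with 1.55 to 2.53 CPM in petiole and at most 0.114 CPM in leaf. The other 3 tested genes did not pass the test, at log2 fold changes of -0.57 to 0.43. The class sum was 85.2, 85.8 and 93.1 CPM in the petiole libraries, against 91.6, 86.6 and 86.6 CPM in the leaf libraries, so the tissues overlapped.

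Sucrose synthase genes rose in petiole in 5 of 6 tested, and 0 fell (median log2 fold change 1.47), beside 31.4% higher and 31.0% lower of all tested genes. Sucrose synthase 1 on A10 (BraA10g019840.3C, A10 14525542 to 14528928, plus strand) was the most abundant of the class by FPKM in both tissues. It had 750.4, 809 and 859 CPM in the petiole libraries, against 52.8, 59.1 and 58.7 CPM in the leaf libraries. Every petiole library was more than 10 times above every leaf library, and the mean was 14.2 times as high (log2 fold change 3.82, SE 0.0700, edgeR adjusted p = 7.29e-09). Its copy on A03, sucrose synthase 1-like (BraA03g009830.3C, A03 4214963 to 4218794, minus strand), had the largest log2 fold change of the class, with 136, 153 and 164 CPM in the petiole libraries, against 8.05, 6.94 and 11.0 CPM in the leaf libraries. The tissues did not overlap (log2 fold change 4.13, SE 0.173, edgeR adjusted p = 3.82e-07). From its annotated transcript alone the A10 gene had a log2 fold change of 0.14 (edgeR adjusted p = 0.831), and its assembled transcript is described with the other transcripts. Together these copies made up most of the class in both tissues: the A10 gene held 79.0% ± 0.295 in petiole and 68.8% ± 2.23 in leaf (SD, n = 3 each) of the FPKM of the class, and the A03 gene 17.2% ± 0.469 in petiole and 11.7% ± 2.14 in leaf (SD, n = 3 each). How reads of the similar copies were shared between them is not given in the sources used here.

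The smaller members rose less. Sucrose synthases 5 and 6 are known in Arabidopsis as forms of the phloem sieve elements, where they serve callose synthesis. Sucrose synthase 5 (BraA05g015010.3C) had 11.1, 11.0 and 11.7 CPM in the petiole libraries, against 6.53, 4.86 and 5.13 CPM in the leaf libraries (log2 fold change 1.03, SE 0.149, edgeR adjusted p = 4.67e-04). Sucrose synthase 6 (BraA07g037520.3C) and sucrose synthase 6-like (BraA07g028740.3C), both on A07, had log2 fold changes of 0.997 and 1.90 (edgeR adjusted p = 0.00109 and 6.94e-06). With annotated transcripts alone, sucrose synthase 6 had -0.79 and sucrose synthase 5 had 3.68, and neither passed the test (edgeR adjusted p = 0.794 and 0.229). The 3 genes of this phloem type each held 1.11 to 1.40% of the FPKM of the class in the petiole libraries, against 3.92 to 8.74% in the leaf libraries. Of the markers of sieve elements, SIEVE ELEMENT OCCLUSION B had 33.0 CPM in petiole and 15.2 CPM in leaf (log2 fold change 1.12) and its A-like gene 74.6 CPM in petiole and 43.5 CPM in leaf (0.78), while SIEVE ELEMENT OCCLUSION C had 18.5 CPM in petiole and 31.2 CPM in leaf (-0.75), all called by edgeR. The whole phloem list had 5 rises and 8 falls among 18 tested genes, and both SUC2 genes in it fell (-2.19 and -0.87). The part of these markers in the rise of sucrose synthases 5 and 6 was not tested. Sucrose synthase 2 (BraA06g034940.3C) was under 0.9 CPM and did not pass the test (0.65, edgeR adjusted p = 0.684). Sucrose synthase 3 (BraA09g001880.3C) was below the filter, with 0 counts in every petiole library, against 31, 15 and 0 counts in the leaf libraries.

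**Figure D2:**
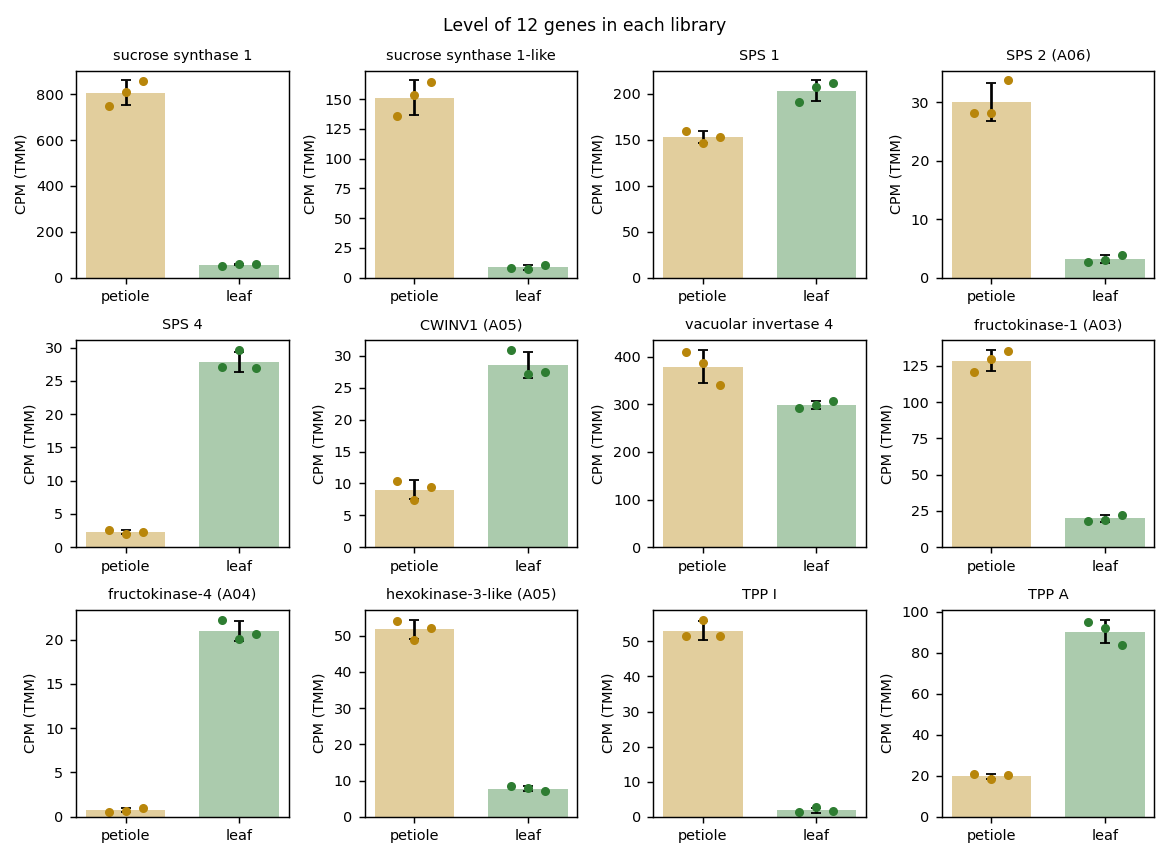
TMM-normalized CPM is drawn for 12 genes, 1 panel each, with a dot for each library, a bar for the mean of the 3 petiole (left) or leaf (right) libraries and an error bar for the SD. SPS is sucrose-phosphate synthase, CWINV1 a cell wall invertase and TPP trehalose-phosphate phosphatase, and each panel has its own axis from 0. Sucrose synthase 1 reaches 750 to 859 CPM in petiole and at most 59.1 CPM in leaf, while SPS 4, fructokinase-4 on A04 and TPP A lie higher in leaf.

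Cell wall invertase, which splits sucrose outside the cell, went the other way: of 8 tested genes 4 fell, 0 rose and 4 did not pass the test. Among all tested genes, 31.0% fell and 31.4% rose. CWINV1 on A05 (BraA05g033210.3C, A05 23966940 to 23970758, plus strand), whose Arabidopsis counterpart is the main cell wall invertase of leaves, was the highest of the class by FPKM in both tissues. It had 10.4, 7.37 and 9.38 CPM in the petiole libraries, against 30.9, 27.2 and 27.6 CPM in the leaf libraries. The tissues did not overlap, and the level was 3.16 times as high in leaf (log2 fold change -1.66, SE 0.139, edgeR adjusted p = 1.90e-05). Its share of the class hardly differed, at 65.5% ± 3.93 in petiole and 65.8% ± 2.62 in leaf (SD, n = 3 each). A CWINV1 gene on A01 (BraA01g037790.3C) had 0.0385, 0.194 and 0 CPM in the petiole libraries, against 7.38, 7.80 and 6.31 CPM in the leaf libraries. It was nearly silent in petiole (log2 fold change -6.50, SE 0.851, edgeR adjusted p = 2.72e-04). CWINV5 (BraA05g033220.3C), 1533 bases from CWINV1 on A05, was listed at 0 in every petiole library and had 41, 23 and 38 counts in leaf, at least 47.0-fold lower in petiole, and did not pass on log2(FPKM + 1) (limma adjusted p = 0.0776). CWINV4 on A04 (BraA04g025740.3C) was also listed at 0 in petiole, but leaf replicate 2 was at 0 too (33, 0 and 48 counts), and its call (edgeR adjusted p = 0.0341) was lost without any 1 of the petiole libraries (edgeR adjusted p 0.0626 to 0.0641) and could not be tested without leaf replicate 1 or 3. It was also lost on both FPKM scales (limma adjusted p 0.212 and 0.119) and with annotated transcripts alone (edgeR adjusted p = 0.102).

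The other 4 tested cell wall invertases did not pass the test. CWINV4 is known in Arabidopsis as the invertase of nectaries, and CWINV6 there as a fructan exohydrolase. A pair of CWINV4-like genes on A03, BraA03g018880.3C and BraA03g018900.3C, had 2.04, 0.959 and 2.17 CPM in the petiole libraries, against 2.77, 2.75 and 2.63 CPM in the leaf libraries, and 2.54, 1.14 and 2.63 CPM in the petiole libraries, against 3.82, 4.61 and 3.13 CPM in the leaf libraries. In both genes petiole replicate 2 was the lowest library (log2 fold changes -0.66 and -0.87, edgeR adjusted p = 0.144 and 0.0641). CWINV2 (BraA04g006780.3C) and CWINV6-like (BraA10g026320.3C) stayed at or below 1.28 CPM.

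Vacuolar invertase rose slightly in 2 of 3 tested genes, beside 31.4% higher of all tested genes. The sum over the 5 genes was 465, 439 and 391 CPM in the petiole libraries, against 332, 336 and 343 CPM in the leaf libraries. Acid beta-fructofuranosidase 4 on A09 (BraA09g060900.3C, A09 42579118 to 42583786, minus strand) held 86.1% ± 0.547 in petiole and 87.0% ± 0.828 in leaf (SD, n = 3 each) of the FPKM of the class and had the highest FPKM of any invertase gene in both tissues. It had 409, 387 and 341 CPM in the petiole libraries, against 292, 298 and 307 CPM in the leaf libraries. It rose slightly without overlap (log2 fold change 0.34, SE 0.0649, edgeR adjusted p = 0.00210). Its copy on A06 (BraA06g009420.3C) rose by a similar amount, with 54.9, 51.4 and 48.9 CPM in the petiole libraries, against 40.1, 38.5 and 35.0 CPM in the leaf libraries (log2 fold change 0.45, SE 0.0771, edgeR adjusted p = 0.00123). With annotated transcripts alone, these genes had 1.31 and 0.10 and did not pass (edgeR adjusted p = 0.0854 and 0.892). The 3 genes of the beta-fructofuranosidase 3 type were at most 0.717 CPM, and 1 of them was tested and did not pass (BraA09g015710.3C, 0.81). Of the 10 putative invertase inhibitors, a family known for blocking acid invertases, 2 were tested. One on A07 (BraA07g019680.3C) had 2.48, 1.23 and 2.78 CPM in the petiole libraries, against 0.130, 0 and 0.0569 CPM in the leaf libraries. It was higher in every petiole library (log2 fold change 5.10, SE 0.974, edgeR adjusted p = 0.00224). The other, on A06 (BraA06g041460.3C), had 2.60, 1.86 and 2.46 CPM in the petiole libraries, against 1.97, 2.83 and 1.49 CPM in the leaf libraries and did not pass the test (edgeR adjusted p = 0.745). On the FPKM scales limma called it higher in petiole (0.61, adjusted p = 0.0134, on log2(FPKM + 1) and 0.87, adjusted p = 0.0166, on log2(FPKM + 0.1)). Of the 8 inhibitor genes below the filter, 6 lie within a stretch of A02 and had at most 0.0192 CPM.

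Neutral or alkaline invertases, of the cytosol and the organelles, differed modestly between the tissues. Of 7 tested genes 1 rose and 4 fell, beside 31.4% higher and 31.0% lower of all tested genes. Apart from the plastid form the called changes were under 0.6 on the log2 scale. The cytosolic CINV2 (BraA03g026930.3C), by a narrow margin the highest of the class by FPKM in both tissues, had 74.7, 88.4 and 77.1 CPM in the petiole libraries, against 84.4, 92.6 and 83.6 CPM in the leaf libraries. The tissues overlapped, and the gene did not pass the test (log2 fold change -0.12, SE 0.0760, edgeR adjusted p = 0.210). It was called lower without petiole replicate 2 (-0.19, edgeR adjusted p = 0.0395). On the FPKM scales limma called it higher in petiole (0.61, adjusted p = 2.03e-04, on log2(FPKM + 1) and 0.63, adjusted p = 2.25e-04, on log2(FPKM + 0.1)). CINV1-like (BraA05g021880.3C), also cytosolic, rose, with 83.3, 81.9 and 77.4 CPM in the petiole libraries, against 57.5, 64.8 and 68.5 CPM in the leaf libraries (log2 fold change 0.35, SE 0.0724, edgeR adjusted p = 0.00359). Invertase E (BraA10g018900.3C, A10 13969030 to 13971338, plus strand), a plastid form, showed the largest fall. It had 46.2, 45.9 and 46.7 CPM in the petiole libraries, against 103, 85.4 and 102 CPM in the leaf libraries (log2 fold change -1.07, SE 0.0775, edgeR adjusted p = 8.57e-06). The falls of invertase A of mitochondria (BraA03g061860.3C, -0.58), invertase D (BraA09g040380.3C, -0.54) and invertase C of mitochondria (BraA05g038930.3C, -0.15) all had the opposite sign on log2(FPKM + 1) (0.15, 0.19 and 0.65, limma adjusted p = 0.225, 0.0412 and 4.50e-05). The call of invertase C (edgeR adjusted p = 0.0340) was lost without any 1 library other than leaf replicate 3 (edgeR adjusted p 0.0573 to 0.101). Annotated transcripts alone gave 0.24 for invertase C and -0.38 for invertase A, and neither passed (edgeR adjusted p = 0.287 and 0.102).

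Hexokinases, which phosphorylate glucose, rose in 5 of 8 tested genes and fell in 1, beside 31.4% higher and 31.0% lower of all tested genes. Hexokinase-3 (BraA06g003260.3C, A06 1887645 to 1890711, minus strand), whose Arabidopsis counterpart is a plastid enzyme, was the highest by FPKM in both tissues. It had 175, 184 and 176 CPM in the petiole libraries, against 129.6, 129.6 and 119.7 CPM in the leaf libraries (log2 fold change 0.50, SE 0.0469, edgeR adjusted p = 3.95e-05). With annotated transcripts alone its value was -0.47 and did not pass (edgeR adjusted p = 0.323). The 2 hexokinase-3-like genes rose far more. The one on A05 (BraA05g019040.3C, A05 11942022 to 11945105, minus strand) had 54.2, 48.8 and 52.3 CPM in the petiole libraries, against 8.37, 7.86 and 7.12 CPM in the leaf libraries. It was 6.65 times as high in petiole, with no overlap (log2 fold change 2.73, SE 0.0915, edgeR adjusted p = 1.13e-07). The one on A08 (BraA08g002960.3C) followed with 26.8, 24.3 and 25.0 CPM in the petiole libraries, against 3.95, 4.54 and 5.18 CPM in the leaf libraries (log2 fold change 2.48, SE 0.126, edgeR adjusted p = 1.09e-06). From annotated transcripts alone the A08 gene had the opposite sign and did not pass (-2.17, edgeR adjusted p = 0.267). Their shares of the class were 17.1% ± 0.578 in petiole and 3.66% ± 0.214 in leaf (SD, n = 3 each) and 7.85% ± 0.548 in petiole and 2.33% ± 0.226 in leaf (SD, n = 3 each).

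Hexokinase-1, known in Arabidopsis as a glucose sensor, had the opposite sign. The gene on A07 (BraA07g000960.3C) had 53.8, 51.2 and 53.3 CPM in the petiole libraries, against 63.1, 56.9 and 62.9 CPM in the leaf libraries. Its small fall (log2 fold change -0.21, SE 0.0612, edgeR adjusted p = 0.0180) was the only one called in the class by edgeR, turned to 0.52 on log2(FPKM + 1) (limma adjusted p = 6.66e-05), and was lost without petiole replicate 2, leaf replicate 1 or leaf replicate 3 (edgeR adjusted p 0.0515 to 0.0624) and with annotated transcripts alone (-0.081, edgeR adjusted p = 0.685). Its share of the class was 21.1% ± 0.562 in petiole and 35.7% ± 2.02 in leaf (SD, n = 3 each). Hexokinase-1-like (BraA09g012100.3C) and hexokinase-like 1 (BraA10g006310.3C), whose Arabidopsis counterpart is known to lack catalytic activity, rose by log2 fold changes of 0.44 and 1.02 (edgeR adjusted p = 0.00988 and 1.59e-04). The rise of hexokinase-like 1 was lost with annotated transcripts alone (-0.040, edgeR adjusted p = 0.961). Hexokinase-4 and hexokinase-like 2 on A01 did not pass the test, at -0.37 and 0.14. The class sum was 344, 347 and 343 CPM in the petiole libraries, against 233, 225 and 220.2 CPM in the leaf libraries.

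All 10 tested fructokinase genes were called, 3 higher and 7 lower in petiole, beside 62.4% of all tested genes. The highest gene of the class by FPKM in petiole was a fructokinase-1 gene on A03 (BraA03g016690.3C, A03 7743608 to 7745931, minus strand), with 121, 129.9 and 135 CPM in the petiole libraries, against 18.3, 19.0 and 22.4 CPM in the leaf libraries. It was 6.45 times as high in petiole, with no overlap (log2 fold change 2.69, SE 0.0902, edgeR adjusted p = 1.15e-07), and its share of the class was 46.6% ± 2.15 in petiole and 10.3% ± 0.578 in leaf (SD, n = 3 each). Fructokinase-7 on A10 (BraA10g010430.3C) was next in petiole, with 70.9, 72.3 and 77.2 CPM in the petiole libraries, against 24.8, 25.6 and 32.1 CPM in the leaf libraries (log2 fold change 1.42, SE 0.104, edgeR adjusted p = 9.08e-06). The plastid fructokinase-6 (BraA07g032140.3C) rose less (0.60, edgeR adjusted p = 0.00101; 0.99 and adjusted p = 0.124 with annotated transcripts alone). Fructokinases are known in tomato and aspen for a role in the growth of vascular tissue.

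In leaf no single fructokinase led the class. The highest by FPKM was fructokinase-like 2 (BraA07g034140.3C, A07 24312365 to 24314589, plus strand), at 2.06% ± 0.338 in petiole and 16.2% ± 0.924 in leaf (SD, n = 3 each) of the class. Fructokinase-like 1 and 2 are known in Arabidopsis as partners of the plastid RNA polymerase in chloroplast gene expression. Fructokinase-like 2 had 8.16, 9.71 and 7.60 CPM in the petiole libraries, against 42.1, 48.2 and 48.4 CPM in the leaf libraries (log2 fold change -2.44, SE 0.117, edgeR adjusted p = 7.74e-07), and fructokinase-like 1 (BraA09g045080.3C) had 6.21, 7.08 and 7.26 CPM in the petiole libraries, against 28.4, 30.4 and 31.0 CPM in the leaf libraries (log2 fold change -2.13, SE 0.0993, edgeR adjusted p = 6.73e-07). Their fall goes along with that of the mesophyll markers, whose part was not tested. The largest fall of the class with reads in both tissues was that of fructokinase-4 on A04 (BraA04g002380.3C, A04 1434833 to 1436264, minus strand), with 0.586, 0.633 and 1.02 CPM in the petiole libraries, against 22.3, 20.1 and 20.6 CPM in the leaf libraries. It was 28.1 times as high in leaf (log2 fold change -4.81, SE 0.229, edgeR adjusted p = 7.46e-07). Another fructokinase-4 gene on A07 (BraA07g023920.3C) was listed at 0 in every petiole library, with 16, 58 and 15 counts in leaf, at least 41.0-fold lower in petiole, and did not pass on log2(FPKM + 1) (limma adjusted p = 0.0771). A second fructokinase-1 gene, on A05 (BraA05g013250.3C), fell while its A03 copy rose, with 6.85, 7.01 and 7.29 CPM in the petiole libraries, against 16.3, 14.7 and 16.9 CPM in the leaf libraries (log2 fold change -1.18, SE 0.106, edgeR adjusted p = 2.89e-05). The smaller falls of the fructokinase-1 gene on A10 (BraA10g005420.3C, -0.56) and fructokinase-5 on A06 (BraA06g028790.3C, -0.60) turned to 0.15 and 0.16 on log2(FPKM + 1) (limma adjusted p = 0.170 and 0.176). The annotated transcript of fructokinase-5 on A06 had 1 count in every library, below the filter.

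**Figure D3:**
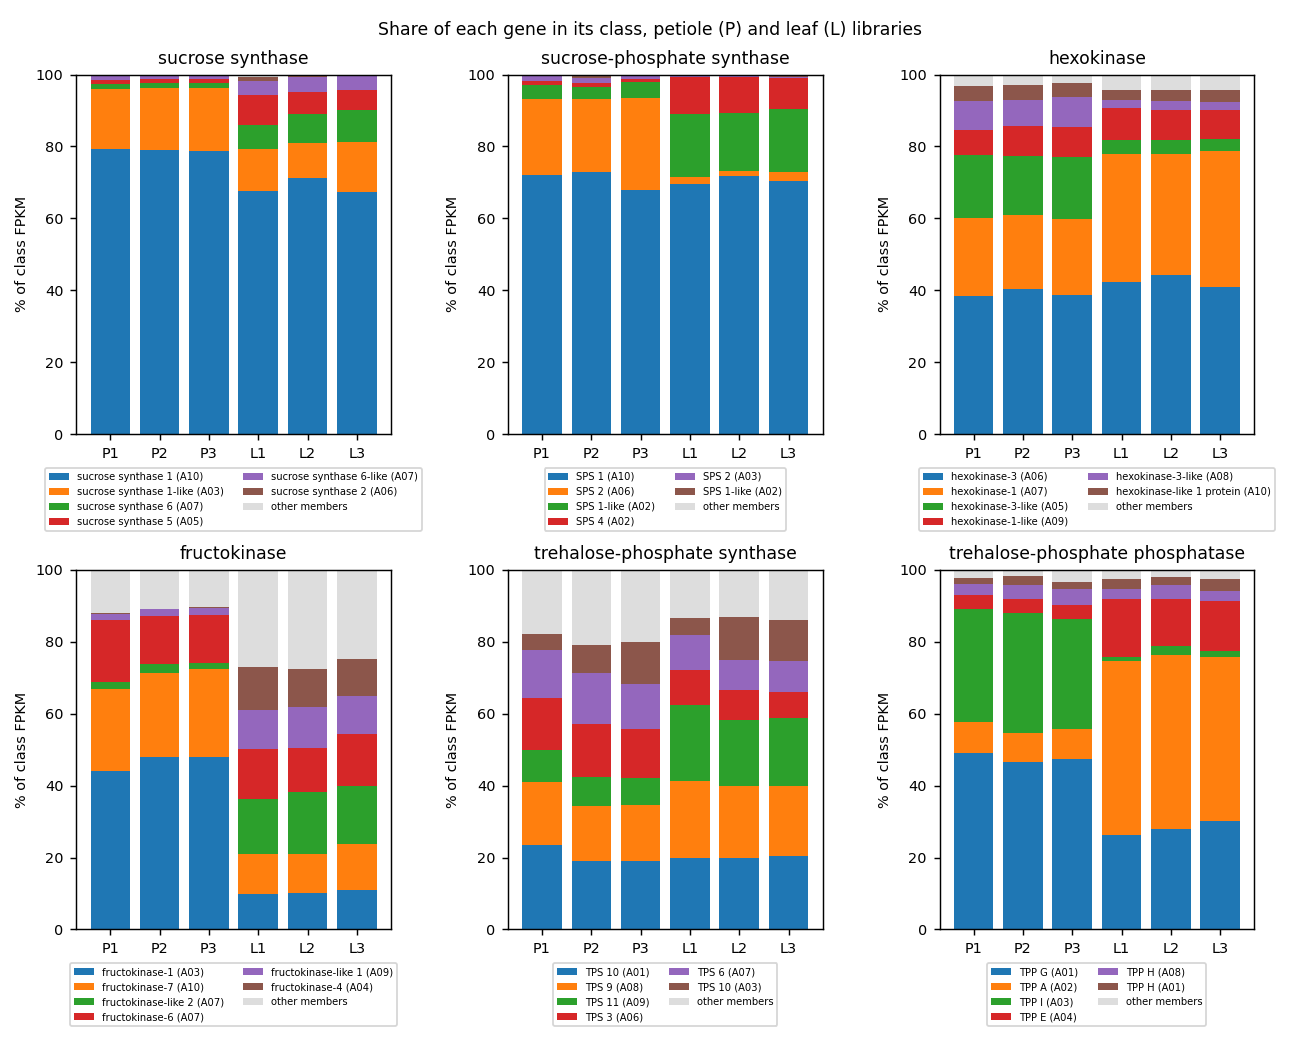
The share of each gene in the summed FPKM of its enzyme class is drawn in percent for petiole libraries 1 to 3 (P1 to P3) and leaf libraries 1 to 3 (L1 to L3), with the 6 genes that reach the largest share in colour and all others in grey. TPS and TPP are trehalose-phosphate synthase and phosphatase, SPS is sucrose-phosphate synthase, and chromosomes are given in parentheses. Sucrose synthase 1 and SPS 1 lead their classes in both tissues, whereas the leading fructokinase and TPP genes differ between petiole and leaf.

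The 6-phosphofructokinases, which phosphorylate fructose 6-phosphate in glycolysis, also split, with 3 higher and 5 lower of 11 tested. Among all tested genes, 31.4% were higher and 31.0% lower. 6-phosphofructokinase 6 (BraA01g005200.3C) led by FPKM in petiole, with 38.2, 38.5 and 35.4 CPM in the petiole libraries, against 18.1, 20.7 and 14.4 CPM in the leaf libraries (log2 fold change 1.08, SE 0.132, edgeR adjusted p = 1.82e-04). 6-phosphofructokinase 1 (BraA01g008380.3C) led by FPKM in leaf, with 34.7, 35.2 and 33.8 CPM in the petiole libraries, against 49.8, 44.9 and 54.2 CPM in the leaf libraries. Its fall (log2 fold change -0.52, SE 0.0803, edgeR adjusted p = 6.85e-04) had the opposite sign on log2(FPKM + 1) (0.21, limma adjusted p = 0.0281), and did not pass with annotated transcripts alone (-2.04, edgeR adjusted p = 0.120). The largest rise was that of 6-phosphofructokinase 3 (BraA01g017010.3C), with 27.2, 31.7 and 32.5 CPM in the petiole libraries, against 11.5, 11.7 and 12.6 CPM in the leaf libraries (log2 fold change 1.35, SE 0.0997, edgeR adjusted p = 9.21e-06). Its annotated transcripts alone gave -1.21, which did not pass (edgeR adjusted p = 0.768). The largest fall was that of a 7-like gene on A03 (BraA03g012880.3C), with 2.41, 2.86 and 2.88 CPM in the petiole libraries, against 18.6, 21.9 and 20.6 CPM in the leaf libraries (log2 fold change -2.90, SE 0.130, edgeR adjusted p = 5.35e-07). From annotated transcripts alone this gene had 1.65 and did not pass (edgeR adjusted p = 0.543). 6-phosphofructokinase 7 itself (BraA10g014550.3C) rose by 1.06, so these 2 genes of 1 name went opposite ways. The plastid form 6-phosphofructokinase 4 (BraA03g044610.3C) fell by 1.96 on the log2 scale, against 0.43 (edgeR adjusted p = 0.871) with annotated transcripts alone. The falls of a 5-like plastid form on A01 (BraA01g014640.3C, -0.74) and of 6-phosphofructokinase 2 (BraA06g040830.3C, -0.41) turned to 0.062 and 0.26 on log2(FPKM + 1), and neither passed with annotated transcripts alone (-1.02 and -0.40, edgeR adjusted p = 0.793 and 0.102). The call of 6-phosphofructokinase 2 (edgeR adjusted p = 0.0402) was lost without any 1 library other than leaf replicate 1 (edgeR adjusted p 0.0538 to 0.112).

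Trehalose-phosphate synthases fell into 3 rises and 4 falls among 13 tested genes, most of them small, beside 31.4% higher and 31.0% lower of all tested genes. In Arabidopsis only the class around TPS1 is known to make trehalose 6-phosphate, and the TPS5 to TPS11 type is thought to be regulatory. TPS1 (BraA07g041670.3C), the known synthase, had 27.9, 26.3 and 29.1 CPM in the petiole libraries, against 23.7, 27.2 and 32.1 CPM in the leaf libraries. The tissues overlapped, and the log2 fold change of 0.0051 (SE 0.116) did not pass the test (edgeR adjusted p = 0.974). TPS11 (BraA09g011560.3C, A09 6738054 to 6740810, plus strand) fell most among genes of the regulatory type, with 40.7, 40.5 and 39.6 CPM in the petiole libraries, against 139.7, 124 and 135 CPM in the leaf libraries. It was 3.29 times as high in leaf, without overlap (log2 fold change -1.72, SE 0.0573, edgeR adjusted p = 1.10e-07). TPS9 (BraA08g026340.3C), by a narrow margin the highest of the class by FPKM in leaf, had 82.2, 84.7 and 83.2 CPM in the petiole libraries, against 141, 139 and 142 CPM in the leaf libraries (log2 fold change -0.75, SE 0.0389, edgeR adjusted p = 1.19e-06). It did not pass on log2(FPKM + 1) (-0.040, limma adjusted p = 0.481) or with annotated transcripts alone (-1.34, edgeR adjusted p = 0.604). TPS10 on A01 (BraA01g028060.3C), the highest by FPKM in petiole, had 107, 95.7 and 100.5 CPM in the petiole libraries, against 130.1, 134 and 144 CPM in the leaf libraries. Its fall (log2 fold change -0.43, SE 0.0598, edgeR adjusted p = 3.97e-04) had the opposite sign on log2(FPKM + 1) (0.30, limma adjusted p = 0.00423). A TPS7 gene (BraA10g005120.3C) fell by 0.81 on the log2 scale, and did not pass on log2(FPKM + 1) (-0.043, limma adjusted p = 0.748). It is the first of 4 TPS7 gene models that follow each other on A10 with 12 to 109 bases between them on the same strand, and the deposited annotation marks all 4 as low quality proteins. The other 3 did not pass the test, and reads may be split among them.

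The largest rise of the class was that of TPS4 (BraA03g053750.3C), which was listed at 0 in every leaf library and had 82, 63 and 96 counts in petiole, at least 58.1-fold higher in petiole (edgeR adjusted p = 0.00119). On log2(FPKM + 1) centred on the median gene, limma called this low gene lower in petiole (-0.23, adjusted p = 0.0263). That sign comes from the centring and does not mean a lower level, because the gene was at 0 in every leaf library. TPS5 (BraA03g047730.3C) had 22.4, 47.9 and 48.1 CPM in the petiole libraries, against 20.5, 19.5 and 22.9 CPM in the leaf libraries. Petiole replicate 1 lay within the range of the leaf libraries, and the call (log2 fold change 0.91, SE 0.267, edgeR adjusted p = 0.0179) was lost without petiole replicate 2 or 3 or leaf replicate 1 or 2 (edgeR adjusted p 0.0527 to 0.0654) and with annotated transcripts alone (edgeR adjusted p = 0.194). A gene named TPS3 (BraA06g012820.3C) had a small rise (0.30, edgeR adjusted p = 0.0165) that was lost without petiole replicate 2 or 3 (edgeR adjusted p 0.0519 and 0.0539) and had -0.66 with annotated transcripts alone (edgeR adjusted p = 0.836). Between 99.06 and 100% of its counts in each library lay in an assembled transcript of 2 exons. The annotated transcript of TPS3 has 17 exons and starts further upstream. TPS6 (BraA07g030960.3C) did not pass the test (0.12). The TPS10 copy on A03 (BraA03g061490.3C) spread widely within both tissues, at 29.6, 44.7 and 65.2 CPM in the petiole libraries, against 39.7, 81.7 and 85.7 CPM in the leaf libraries, and did not pass the test (-0.57, edgeR adjusted p = 0.185).

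Trehalose-phosphate phosphatases, which remove the signal, changed in both directions, with 4 higher and 3 lower of 9 tested, beside 31.4% and 31.0% of all tested genes. Their summed level was 158, 161 and 159 CPM in the petiole libraries, against 151, 145 and 137 CPM in the leaf libraries. The highest gene by FPKM in petiole was TPP G on A01 (BraA01g013200.3C, A01 6906366 to 6908043, minus strand), with 71.3, 69.8 and 70.3 CPM in the petiole libraries, against 29.6, 29.1 and 30.1 CPM in the leaf libraries (log2 fold change 1.25, SE 0.0532, edgeR adjusted p = 4.05e-07). TPP I (BraA03g004140.3C, A03 1768485 to 1770660, plus strand) had the largest rise of the class, with 51.7, 56.2 and 51.4 CPM in the petiole libraries, against 1.28, 2.68 and 1.68 CPM in the leaf libraries. It was 28.1 times as high in petiole, with no overlap (log2 fold change 4.82, SE 0.251, edgeR adjusted p = 1.26e-06), and its share of the class was 31.7% ± 1.34 in petiole and 1.68% ± 0.666 in leaf (SD, n = 3 each). With annotated transcripts alone its value was 3.41 and did not pass (edgeR adjusted p = 0.128). The highest gene by FPKM in leaf was TPP A (BraA02g015830.3C, A02 8408594 to 8410600, minus strand), with 20.6, 18.4 and 20.2 CPM in the petiole libraries, against 94.9, 92.3 and 83.8 CPM in the leaf libraries. It was 4.58 times as high in leaf (log2 fold change -2.19, SE 0.0752, edgeR adjusted p = 1.27e-07), at 8.41% ± 0.275 in petiole and 47.5% ± 1.52 in leaf (SD, n = 3 each) of the class. From annotated transcripts alone TPP A showed no difference that passed, at -0.00064 (edgeR adjusted p = 0.999). TPP E (BraA04g016190.3C) fell as well, with 5.82, 6.02 and 6.48 CPM in the petiole libraries, against 17.8, 13.9 and 14.3 CPM in the leaf libraries (log2 fold change -1.33, SE 0.135, edgeR adjusted p = 5.92e-05; -1.51 and adjusted p = 0.605 with annotated transcripts alone).

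The lower members of the class were less certain. A TPP H gene on A08 (BraA08g022190.3C) rose by 0.90 (edgeR adjusted p = 0.0142), a call lost without petiole replicate 3 (edgeR adjusted p = 0.0513). TPP B-like (BraA07g041220.3C) had 0.692, 0.296 and 1.11 CPM in the petiole libraries, against 0.130, 0.164 and 0.114 CPM in the leaf libraries. Its rise (log2 fold change 2.35, SE 0.775, edgeR adjusted p = 0.0294) was lost without any 1 library other than petiole replicate 2 (edgeR adjusted p 0.0562 to 0.114) and had a value of -0.12 on the FPKM scale centred on the median gene. TPP G on A03 (BraA03g050290.3C) had 0.519, 0.602 and 0.587 CPM in the petiole libraries, against 2.29, 0.616 and 1.86 CPM in the leaf libraries. Its fall (log2 fold change -1.48, SE 0.554, edgeR adjusted p = 0.0476), opposite to the rise of its A01 copy, was lost without any 1 library other than leaf replicate 2 (edgeR adjusted p 0.0913 to 0.169), on both FPKM scales (limma adjusted p 0.241 and 0.334) and with annotated transcripts alone (edgeR adjusted p = 0.0913). TPP B (BraA02g024520.3C) was higher in every petiole library (1.89, 1.51 and 1.70 CPM in the petiole libraries, against 0, 0.411 and 0 CPM in the leaf libraries) but did not pass the test (edgeR adjusted p = 0.0576).

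Other genes of sucrose metabolism were counted in the same fit. As background for each list below, rises made up 31.4% and falls 31.0% of that whole fit, with a median log2 fold change of 0.014. Of 16 tested genes of hexose phosphate interconversion, 8 rose and 7 fell (median 0.19), and 4 fell with annotated transcripts alone. The largest fall was that of a cytosolic fructose-1,6-bisphosphatase (BraA08g006060.3C), which leads triose phosphates of photosynthesis towards sucrose, with 26.8, 30.0 and 25.5 CPM in the petiole libraries, against 145, 150.1 and 154 CPM in the leaf libraries (log2 fold change -2.45, SE 0.0699, edgeR adjusted p = 5.04e-08). The largest rise was that of the alpha 1 subunit of pyrophosphate-dependent phosphofructokinase (BraA06g016400.3C), with 195, 193 and 196 CPM in the petiole libraries, against 63.1, 61.3 and 65.0 CPM in the leaf libraries (log2 fold change 1.62, SE 0.0411, edgeR adjusted p = 2.92e-08). Of 15 tested genes of sugar signalling and trehalase, 3 rose and 8 fell (median -0.24), and without leaf replicate 3 the rises numbered 1. On both FPKM scales limma called 9 rises and 3 falls of this list, after centring on the median gene 4 rises and 5 falls, and with annotated transcripts alone edgeR called 0 rises and 5 falls. The largest fall was that of a beta-1-like subunit of the SNF1-related kinase (BraA02g009430.3C, -1.69, SE 0.0727), a kinase complex known to be inhibited by trehalose 6-phosphate, and the largest rise that of its catalytic subunit KIN11-like (BraA02g038630.3C, 0.42, SE 0.122; edgeR adjusted p = 4.34e-07 and 0.0174). Of 42 tested sucrose and hexose transport genes, 10 rose and 24 fell (median -1.09), and 5 rose with annotated transcripts alone. SWEET15-like (BraA10g025580.3C), of a family of sugar exporters, was listed at 0 in petiole, against 2.46 to 3.50 CPM in leaf, which makes it at least 276-fold lower in petiole. Sugar transport protein 2 (BraA10g006040.3C) had 0.122 to 0.532 CPM in petiole and was listed at 0 in leaf, which makes it at least 25.3-fold higher in petiole.

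Gene values rest largely on transcripts assembled from these libraries rather than on the annotated models. The 118 genes have 118 annotated and 81 assembled transcripts, and 52 genes have at least 2 of them, up to 6. Assembled transcripts held 64.7, 68.8 and 65.5% of the members' counts in the petiole libraries and 57.1, 55.8 and 53.8% in the leaf libraries. Of 163 tested transcripts, edgeR called 26 as higher and 24 as lower in petiole. That is 30.7%, against 29.5% of all tested transcripts, of which 15.4% were called higher and 14.1% lower. Leaving out single libraries gave 19 to 24 higher and 13 to 24 lower transcripts, with 13 lower without leaf replicate 3 and 14 without leaf replicate 1, and limma on log2(FPKM + 1) called 52 higher and 16 lower. Only 4 genes had more than 1 called transcript, and none of these had calls in both directions. Of the 46 genes with a called transcript, 45 were called in the same direction at gene level, and the exception was a plastid 6-phosphofructokinase 5 on A09 (BraA09g054830.3C), which was not called as a gene. A gene value is the sum of these same transcripts, and 66 genes have 1 transcript, so this agreement was largely built in.

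The assembled transcripts mattered for the leading gene. The annotated transcript of sucrose synthase 1 on A10 had 1376, 1372 and 1202 counts in the petiole libraries, against 562, 540 and 1487 counts in the leaf libraries (log2 fold change 0.20, edgeR adjusted p = 0.793). A longer assembled transcript of 13 exons, from 14524211 to 14529182, had 76681, 77904 and 77823 counts in the petiole libraries, against 3105, 3780 and 2642 counts in the leaf libraries (log2 fold change 4.21, edgeR adjusted p = 3.76e-05). The annotated transcript thus took 1.76, 1.73 and 1.52% in the petiole libraries, against 15.3, 12.5 and 36.0% in the leaf libraries of the counts of the gene. In TPS5 the split differed between libraries of 1 tissue: the annotated transcript had 1693 counts in petiole replicate 1 and 0 in every other library. The split of counts among overlapping transcripts is an estimate, and changes of single transcripts are less certain than those of genes.

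**Figure D4:**
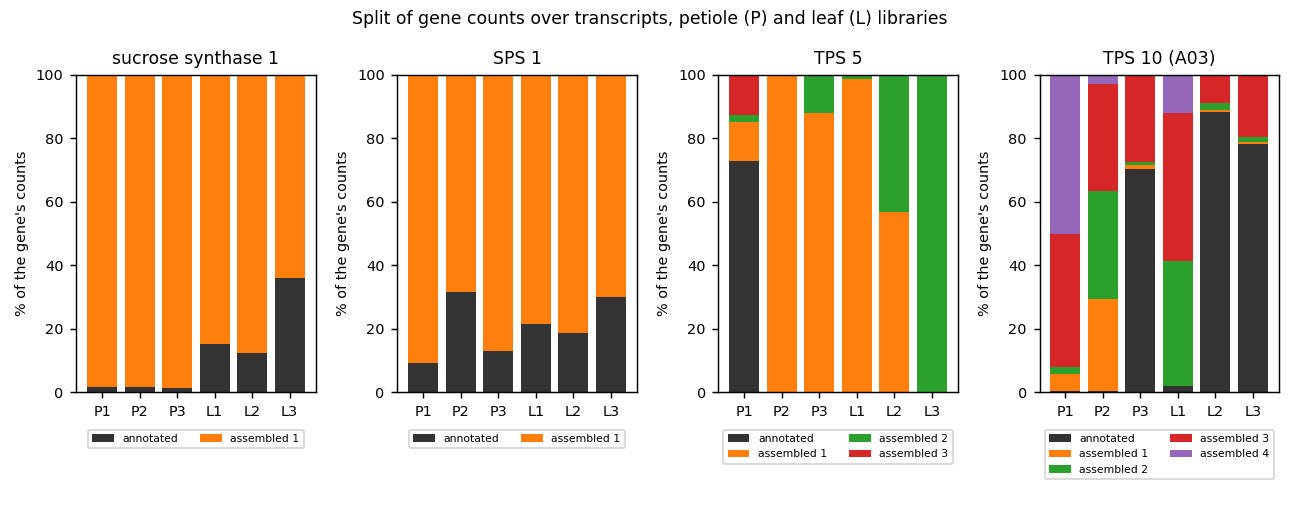
The percent of a gene's estimated counts given to its annotated transcript (black) and to each assembled transcript (colours) is drawn for 4 genes in petiole libraries 1 to 3 (P1 to P3) and leaf libraries 1 to 3 (L1 to L3). SPS is sucrose-phosphate synthase and TPS trehalose-phosphate synthase. Sucrose synthase 1 is carried by its assembled transcript in all 6 libraries, while the transcript that carries TPS 5 and TPS 10 on A03 differs between libraries of 1 tissue.

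Members lie on all 10 chromosomes, from 7 on A04 to 17 on A03. Next to each other, with no other annotated gene between, lie 10 pairs of members, all of 1 class and on the same strand, among them CWINV1 and CWINV5 on A05 and the TPS7 models on A10. Circular RNA hardly touched the set: of 886 circular RNAs 2 had a member as host gene, with 3 back-spliced reads in all. A circle of TPP A (A02 8408728 to 8409134) had 1 read in petiole replicate 1, and a circle of neutral invertase D (A09 31511483 to 31513102) had 2 reads in leaf replicate 1. The other libraries held none among 3216 to 4227 back-spliced reads each, at or below the floor of 3 reads, so no difference was detectable at this depth.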

How the data were processed

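Linear transcripts and circular RNAs of 3 petiole and 3 leaf libraries were analysed from the deposited tables. Per the file headers, the authors deposited estimated counts and FPKM per assembled transcript, and counts of back-spliced reads per circular RNA. The submitters' processing notes name HISAT2, StringTie and TopHat without roles. The genome build, the circular RNA caller and the sharing of reads among copies were not given in the sources used here. Positions are those of the files.

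A gene's value was the sum of the estimated counts of its transcripts with class code =, j or c. Members and lists were chosen with earlier results of these data known. Genes with a mean of at least 10 counts were tested with edgeR 4.0.16 (TMM, quasi-likelihood, no block; R 4.3.3), petiole minus leaf, with Benjamini-Hochberg adjustment over all 27984 tested genes or 52982 transcripts. The standard error (SE) is the fold change divided by the square root of F. FPKM was compared within libraries, and with limma 3.58.1 as an alternative, because on the log2(FPKM + 1) scale petiole exceeded leaf by 0.48 for the median gene. Where a tissue was at 0, the bound takes 3 counts over its 3 libraries and covers counting error only. The procedure was also run on simulated counts in which few genes changed, unlike in these data, so its error rate here was not measured. Per class, values in every library are given for the member with the highest FPKM in each tissue and the called members with the largest rise and fall. The other called members are named with their fold change, and from each further list the largest called rise and fall. Members named beyond that rule were chosen after their values were seen. Replicate numbers gave no sign of pairing in the values, the labels do not state whether they pair the samples, and the main test was unpaired.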

Additional observations from a re-analysis of the deposited data

How the results depend on the processing

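Of the 64 called members, 64 were called the same way with RLE normalization, 63 with DESeq2, 63 with no filter and 64 with all transcripts under a gene name. Leaving out each library in turn left 27 to 30 rises and 28 to 30 falls. The FPKM scale turned small falls round. With limma on log2(FPKM + 1) and log2(FPKM + 0.1), 51 and 51 members were higher and 14 and 16 lower, 52 transcripts were higher, and sugar signalling genes had 9 and 9 rises and 3 and 3 falls. Matching shares of all tested genes were not counted. On these scales the sign was reversed at 0.21 and 0.23 for 6-phosphofructokinase 1, 0.062 and 0.083 for the 5-like 6-phosphofructokinase on A01, 0.26 and 0.34 for 6-phosphofructokinase 2, 0.16 and 0.18 for fructokinase-5 on A06, 0.15 and 0.17 for fructokinase-1 on A10, 0.52 and 0.55 for hexokinase-1, 0.61 and 0.63 for CINV2, 0.15 and 0.17 for invertase A, 0.65 and 0.68 for invertase C, 0.19 and 0.21 for invertase D, 0.50 and 0.52 for sucrose-phosphatase 2 on A03, 0.33 and 0.34 for sucrose-phosphate synthase 1 and 0.30 and 0.31 for TPS10 on A01. The cause was not tested. After centring on the median gene, an alternative added after seeing the data, sugar signalling had 5 falls, and values were 0.072 for CINV2, 0.11 for invertase C, -0.016 for sucrose-phosphate synthase 2 on A03, -0.12 for TPP B-like and -0.23 for TPS4. TPS4 was at 0 in every leaf library, so its negative value comes from the centring. With transcripts of class code = alone, 18 members were higher and 14 lower, and 31 of the 64 calls were shared. Hexose phosphate genes then had 4 falls, sugar signalling 0 rises and 5 falls, and transport 5 rises, and values were -1.21 for 6-phosphofructokinase 3, 1.65 for the 7-like 6-phosphofructokinase on A03, 0.43 for 6-phosphofructokinase 4, -0.47 for hexokinase-3, -2.17 for hexokinase-3-like on A08, -0.040 for hexokinase-like 1, 0.24 for invertase C, -0.79 for sucrose synthase 6 and -0.66 for TPS3. That setting drops the assembled transcripts.

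Leaving out single libraries gave 13 to 24 lower transcripts and 1 to 3 rises in sugar signalling, and -0.066 (without leaf replicate 3) to 0.41 (without leaf replicate 2) for the inhibitor on A06. The replicate numbers correlated at -0.0087 to 0.00657 between tissues (same number 0.00573, 0.00165 and 0.00163), which gave no sign of pairing. These correlations cannot exclude that libraries of the same number came from the same plants, which the labels do not state. With the replicate number as a block, 31 members were higher and 29 lower (58 of 64 calls shared), and 15 transcripts were higher and 13 lower. Without the 6-phosphofructokinases and inhibitors, also added after seeing the data, 27 members were higher and 28 lower. Members listed at 0 in a tissue are limited by the 3-count floor.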
